A study of Mus musculus with 5 samples.

Results

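The 55 genes described here encode the machinery of mitosis: the kinases and cyclins that start it, the spindle checkpoint, the kinetochore, the chromosomal passenger complex, condensin, the mitotic kinesins, the proteins of the spindle and of cytokinesis, and the proteins that end mitosis. They were taken by symbol from a table of 54699 genes, all 55 were found once, and all 55 passed the filter used throughout, a value of at least 1 FPKM (fragments per kilobase of gene length, scaled between libraries) in at least 1 library, which left 12842 genes for comparison. The values come from RNA sequencing of B16F10, a pigmented mouse melanoma cell line, in 5 libraries of 1 culture each. One lentivirus forced expression of mouse Myod1, which drives the muscle programme, another that of Pparg, the receptor that drives fat cell formation, and their control virus brought in only the empty expression vector. These 3 cultures were taken after 8 days. For the knockdown, a virus expressed a short hairpin RNA against Setdb1, a histone H3 methyltransferase, and its control virus brought in only the empty knockdown vector. These cultures were taken after 7 days. The genotype of both controls is given as wild type, and all 5 cultures grew in DMEM with serum until the altered cells had visibly changed. The labels give neither the promoter that drives Myod1 and Pparg nor the hairpin's sequence or a selection step.

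Each group is 1 library, so no difference between groups has a replicate check and none could be tested. The Myod1 and Pparg groups share the expression vector control. The only background the design offers is the difference between the 2 controls, which differ in vector and in day. Reads recovered from the FPKM values totalled between 16214802 and 18300670 per library, and intervals below are 95% intervals for counting error only. Myod1 and Pparg each had reads only in the library made to express them, and Setdb1 stood at 0.867 FPKM after knockdown against 9.82 in its control. All 7 melanocyte markers examined exceeded 1 FPKM in every library, with a summed level from 2195 FPKM with Pparg expression to 8985 with Setdb1 knockdown. Among markers of other cell types, Cd3e (T cells) and Epcam (epithelium) were listed at 0 in every library, and the highest, Col1a1 of fibroblasts, reached 1.92 FPKM.

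Mitosis is driven by the kinase Cdk1 bound to cyclin B. It ends when the anaphase-promoting complex, with its activator Cdc20, marks cyclin B and securin for destruction, which frees separase to cut cohesin between the sister chromatids. Most genes of this machinery are transcribed in G2 and early mitosis in dividing cells, and many of their promoters carry CCAAT boxes, which bind the factor NF-Y, and a cell cycle genes homology region (CHR), which binds the MuvB complexes. Since whole cultures were measured, fewer cells in G2 and mitosis and less of these transcripts per cell cannot be told apart.

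The promoters of 5 members are shown because these genes were low in the same 2 libraries (Myod1 and Setdb1) and each stretch holds at least 1 of these elements. Each stretch is the 120 bases before the RefSeq start of the gene on assembly GRCm38.p6, written 5′ to 3′ on the strand of the gene. Capitals mark CCAAT or its complement ATTGG, and the CHR letters TTTGAA, their complement TTCAAA, or the variant TTCGAA, which reads the same on both strands. In the promoters of all members 1 pair of matches overlapped.
Cdk1 (chr10:69352913-69353032, minus strand): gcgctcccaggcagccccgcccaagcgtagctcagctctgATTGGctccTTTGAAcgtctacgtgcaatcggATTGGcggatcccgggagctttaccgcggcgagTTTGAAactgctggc
Ccnb2 (chr9:70421555-70421674, minus strand): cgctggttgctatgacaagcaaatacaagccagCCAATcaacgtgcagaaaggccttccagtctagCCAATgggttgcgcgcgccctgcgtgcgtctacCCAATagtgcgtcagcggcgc
Plk1 (chr7:122159315-122159434, plus strand): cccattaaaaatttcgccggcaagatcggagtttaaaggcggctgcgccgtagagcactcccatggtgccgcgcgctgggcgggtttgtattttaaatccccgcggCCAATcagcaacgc
Cdc20 (chr4:118437344-118437463, minus strand): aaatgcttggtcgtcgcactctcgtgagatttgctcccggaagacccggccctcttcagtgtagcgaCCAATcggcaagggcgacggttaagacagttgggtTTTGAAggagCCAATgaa
Top2a (chr11:99024190-99024309, minus strand): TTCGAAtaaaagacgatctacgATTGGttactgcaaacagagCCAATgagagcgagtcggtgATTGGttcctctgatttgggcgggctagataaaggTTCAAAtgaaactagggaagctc

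In the Ccnb2 stretch the 3 CCAAT boxes start 87, 54 and 21 bases before the gene, a spacing of 33 bases each time, and in the Cdk1 stretch both boxes lie 32 bases apart. The deposited gene models of these 5 genes begin within 26 bases of the RefSeq start. Among the 46 members with a promoter in the RefSeq table, 33 held CCAAT in the 250 bases before the start (71.7%), against 40.5% of the 8980 compared genes with a promoter there and 37.5% of all 27025 genes. A CHR of either spelling was found in 21 of the 46 (45.7%), against 14.3% of the compared genes and 19.6% of all. A gene with several starts in the table was counted if any 1 held the letters, and some starts lie far inside the deposited gene model: Kif2c and Ncapd3 count for the CHR through starts 3867 and 30241 bases inside, and Cdca8 for CCAAT through one 2394 bases inside. Both elements occurred together in 17 members (36.96%) and in 5.68% of the compared genes. Promoters of Aurkb, Ccna2, Cdc25c, Incenp, Kif20a, Pimreg, Smc4, Spc24 and Tpx2 were not analysed here.

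Within the set, members with and without a CHR had similar medians. The median log2 ratio of members with a CHR was -1.43 with Myod1 expression and -2.13 with Setdb1 knockdown, and that of members without one was -1.28 and -1.97. These are matches of letters, not shown to be bound sites.

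Together the 55 genes took 0.717% of the reads in the expression vector control (interval 0.713 to 0.721) and 0.681% in the knockdown vector control (0.677 to 0.685). Their share was 0.604% with Pparg expression (0.601 to 0.608), 0.246% with Myod1 expression (0.244 to 0.249) and 0.163% with Setdb1 knockdown (0.161 to 0.164). Pparg expression thus lay nearest to the controls and Setdb1 knockdown farthest below them. The median level of the 55 genes followed the same order, with 18.6 and 17.2 FPKM in the expression and knockdown vector controls, 14.7 with Pparg expression, 7.31 with Myod1 expression and 3.05 with Setdb1 knockdown. Gene by gene, 51 members had both the Myod1 and the Setdb1 library below the other 3, and Cdc25b, Ncaph2, Gtse1 and Pttg1 were the exceptions. The share of all compared genes with this order was not counted.

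**Figure D1:**
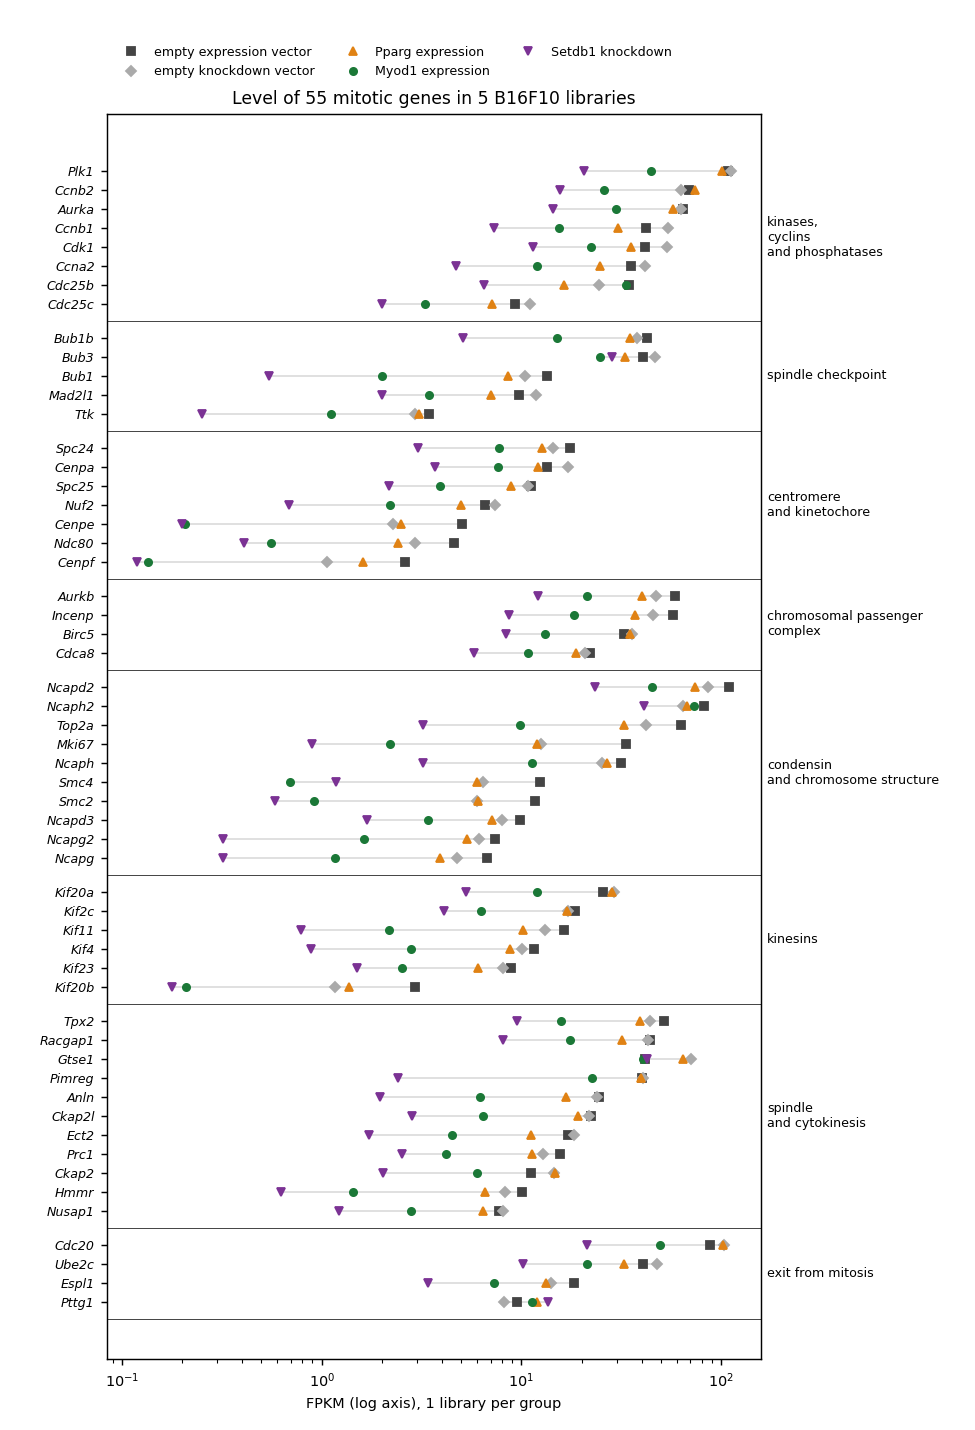
Level of each of the 55 genes (rows, grouped by function) in the 5 libraries, in FPKM on a log axis, 1 point per library. In 51 rows the Setdb1 knockdown point is the lowest of the 5, and in the row of Pttg1 it is the highest.

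Differences are given below as log2((FPKM + 1) / (FPKM + 1)) of a library against its own control, or as the FPKM left in percent of the control. A gene is counted as lower where this log2 ratio is at most -1, that is 2-fold. With Myod1 expression 43 of the 55 members were lower by this count, beside 7.55% of all compared genes, and the median over the members was -1.37 beside 0.02 over all genes. With Setdb1 knockdown 49 members were lower, beside 10.3% of all genes, with a median of -2.10 beside 0.00. With Pparg expression 2 members were lower, Cdc25b and Mki67, beside 2.3% of all genes, and the median was -0.40 beside -0.02. Between the 2 controls 1 member, Mki67, was at least 2-fold lower in the knockdown vector control, beside 1.44% of all genes, and the median was -0.17 beside 0.00. Lower by any amount were 54 members with Myod1 expression (47.9% of all genes), 48 with Pparg expression (52.0%), 54 with Setdb1 knockdown (47.4%) and 37 between the controls (50.4%). No member was at least 2-fold higher in any of these comparisons, where 14.0% (Myod1), 4.22% (Pparg), 9.34% (Setdb1) and 1.23% (controls) of all genes were.

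Of the members, 41 were at least 2-fold lower with both Myod1 expression and Setdb1 knockdown, beside 2.9% of all genes. Against both controls, 37 members remained lower with Myod1 expression (4.42% of all genes), 49 with Setdb1 knockdown (7.56%) and 0 with Pparg expression (0.849%). The 6 that dropped out with Myod1 expression were Ttk, Cenpf, Spc24, Ncapd2, Kif20b and Espl1, while Cdk1, Cenpa, Ckap2, Cdc20 and Ube2c passed against the other control alone. The count with Pparg expression therefore rests on the expression vector control.

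**Figure D2:**
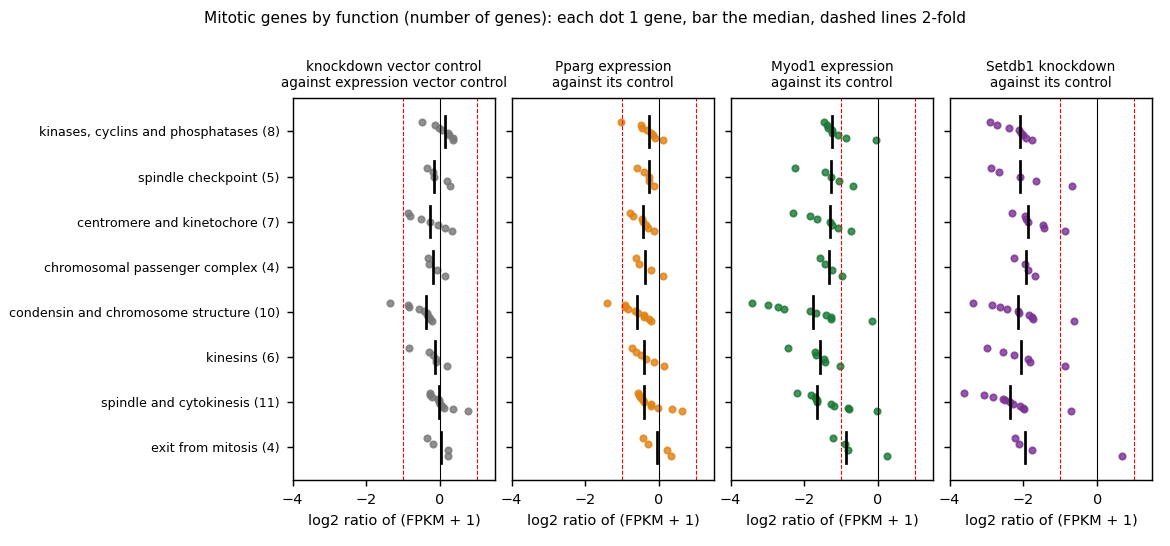
Log2 ratio of (FPKM + 1) of each member (dots) in 4 comparisons (panels), by functional group (rows, with the number of genes), with the median as a bar and dashed lines at 2-fold. Medians of all 8 groups lie below -1.5 with Setdb1 knockdown, between -1.76 and -0.86 with Myod1 expression, and above -1 with Pparg expression and between the controls.

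All 8 genes for the kinases and cyclins that start mitosis and the phosphatases that switch Cdk1 on were at least 2-fold lower with Setdb1 knockdown (median -2.09), and 6 of 8 were with Myod1 expression (median -1.26). Cdk1 (ENSMUSG00000019942, chromosome 10, 69335146 to 69352938), the catalytic kinase, had 41.8 FPKM in the expression vector control, 53.3 in the knockdown vector control, 35.4 with Pparg expression, 22.4 with Myod1 expression and 11.4 with Setdb1 knockdown. Against their own controls, 21.5% was left with Setdb1 knockdown (interval 20.04 to 22.97) and 53.5% with Myod1 expression (50.5 to 56.7), so that Cdk1 missed the 2-fold count in the latter. Ccnb1 (ENSMUSG00000041431, chromosome 13, 100778650 to 100786570), cyclin B1, had 41.98 FPKM in the expression vector control, 53.8 in the knockdown vector control, 30.4 with Pparg, 15.4 with Myod1 and 7.33 with Setdb1 knockdown. That left 36.8% with Myod1 (34.2 to 39.5) and 13.6% with Setdb1 knockdown (12.4 to 14.9). Ccna2, cyclin A2, which acts from S phase to early mitosis, had 35.2 and 41.5 FPKM in the expression and knockdown vector controls, 24.8 with Pparg, 11.98 with Myod1 and 4.69 with Setdb1 knockdown.

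Ccnb2, cyclin B2, was not lower with Pparg expression, where its 73.5 FPKM was the highest of the 5 libraries, above 68.7 and 62.7 in the expression and knockdown vector controls. It had 25.9 FPKM with Myod1 and 15.7 with Setdb1 knockdown. Plk1 (ENSMUSG00000030867, chromosome 7, 122159439 to 122169873), the kinase that promotes entry, spindle assembly and cytokinesis, had 108, 112 and 101 FPKM in the 2 controls (expression, then knockdown vector) and with Pparg, then 44.6 with Myod1 and 20.6 with Setdb1 knockdown. The kinase of the spindle poles, Aurka, was left at 46.3% with Myod1 and 22.9% with Setdb1 knockdown. Among the Cdk1 phosphatases, Cdc25c was left at 35.6% and 18.2% in these comparisons, and Cdc25b departed from all others of its group. Cdc25b had 34.5 FPKM in the expression vector control, 24.4 in the knockdown vector control, 16.4 with Pparg, 33.2 with Myod1 and 6.48 with Setdb1 knockdown. The Myod1 library was thus level with its control (96.4%, interval 90.6 to 103) and above the other control, while the Pparg library stood at 47.5% (44.2 to 51.03).

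The spindle checkpoint holds anaphase back until every kinetochore is attached. Of its 5 genes, 4 were at least 2-fold lower with Myod1 expression and the same number with Setdb1 knockdown, with medians of -1.27 and -2.10. Bub1, the kinase that recruits checkpoint proteins to the kinetochore, had 13.4 FPKM in the expression vector control, 10.4 in the knockdown vector control, 8.58 with Pparg, 2.001 with Myod1 and 0.546 with Setdb1 knockdown. Only 5.27% was left with Setdb1 knockdown (3.79 to 7.14), where the gene rested on 44 reads, and 14.9% with Myod1 (12.4 to 17.9). Bub1b, which makes the checkpoint protein BubR1, was left at 35.5% and 13.5%, Mad2l1, the Mad2 protein that blocks Cdc20, at 35.6% and 16.9%, and the kinase gene Ttk at 32.4% and 8.66%, with Myod1 and Setdb1 respectively. Bub3, the partner that carries Bub1 and BubR1 to the kinetochore and is also bound to other complexes outside mitosis, was the exception. Its level was 40.4 and 46.4 FPKM in the expression and knockdown vector controls, 33.1 with Pparg, 24.6 with Myod1 and 28.3 with Setdb1 knockdown, or 60.9% (58.1 to 63.9) and 61.1% (58.5 to 63.7) of the control in the last 2.

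At the centromere and kinetochore, where chromosomes meet spindle fibres, 6 of 7 genes were at least 2-fold lower with Myod1 expression and 6 of 7 with Setdb1 knockdown. Cenpa, the histone variant that marks the centromere, was the one that missed the count with Myod1: it had 13.4 and 17.2 FPKM in the expression and knockdown vector controls, 12.1 with Pparg, 7.61 with Myod1 and 3.71 with Setdb1 knockdown. The kinesin-like motor of the outer kinetochore, Cenpe, had 5.02 FPKM in the expression vector control but 2.28 in the knockdown vector control, with 2.48 in the Pparg library, 0.207 in the Myod1 library and 0.201 after Setdb1 knockdown. These last values rest on 28 and 32 reads, and they left 4.11% (2.71 to 5.999) and 8.82% (5.93 to 12.7) of the respective controls. Cenpf, a large protein of the outer kinetochore, missed the count with Setdb1 knockdown, at a log2 ratio of -0.88, although 11.3% of the control FPKM was left (7.64 to 16.1). At 1.06 FPKM in the control, adding 1 to the value hides most of that difference.

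The Ndc80 complex, the rod that grips microtubules, is built from 1 copy each of Ndc80, Nuf2, Spc24 and Spc25. All 4 were at least 2-fold lower with Myod1 expression and with Setdb1 knockdown. Their summed level was 39.7 FPKM in the expression vector control, 35.3 in the knockdown vector control, 28.97 with Pparg, 14.4 with Myod1 and 6.31 with Setdb1 knockdown. The subunit transcripts were not left in equal parts. With Myod1, Ndc80 was left at 12.2% (9.07 to 16.02) and Spc24 at 44.1% (38.5 to 50.5), whereas with Setdb1 knockdown Nuf2 was the lowest at 9.395% (7.38 to 11.8) and Spc24 again the highest at 21.3% (17.6 to 25.5).

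The chromosomal passenger complex corrects faulty attachments and later guides cytokinesis. With Setdb1 knockdown its 4 genes ranged from 19.1% left for Incenp, the scaffold, through 23.5% for Birc5 (survivin) and 25.7% for the kinase Aurkb to 27.8% for Cdca8 (borealin). Incenp had 57.3 and 45.4 FPKM in the expression and knockdown vector controls, 37.1 with Pparg, 18.4 with Myod1 and 8.65 with Setdb1 knockdown. Cdca8 had 21.9, 20.9, 18.7, 10.7 and 5.803 FPKM in the same order. With Myod1, 3 of the 4 passed the 2-fold count and Cdca8, at -0.97, lay just outside it. Birc5 was the member that was not lower with Pparg expression, at 107% of the control (100.5 to 114).

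Condensin, Top2a and Mki67 shape the mitotic chromosome, and this group had the lowest median of the 8 with Myod1 expression (-1.76), with 9 of 10 genes at least 2-fold lower. With Setdb1 knockdown 9 of 10 were lower as well (median -2.14). Mki67 (ENSMUSG00000031004, chromosome 7, 135689784 to 135716361), the coat protein of mitotic chromosomes used as a proliferation marker, had 33.5 FPKM in the expression vector control and 12.6 in the knockdown vector control, with 11.9 for Pparg, 2.21 for Myod1 and 0.897 for Setdb1 knockdown. The Pparg library lay at the level of the knockdown vector control, so its value of 35.6% (33.9 to 37.4) holds against the expression vector control alone. Against the knockdown vector control its log2 ratio was -0.07. Top2a (ENSMUSG00000020914, chromosome 11, 98992943 to 99024189), the topoisomerase that untangles sister chromatids, had 62.6 and 42.1 FPKM in the expression and knockdown vector controls, 32.6 with Pparg, 9.81 with Myod1 and 3.202 with Setdb1 knockdown. It kept 15.7% with Myod1 (14.8 to 16.6) and 7.597% with Setdb1 knockdown (6.94 to 8.3001).

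Condensin has a pair of SMC subunits, Smc2 and Smc4, shared by condensin I and condensin II, which otherwise use different subunits. The shared subunits were left at 7.85% (Smc2) and 5.63% (Smc4) with Myod1 expression, below every subunit of either complex that is not shared. With Setdb1 knockdown they were left at 9.71% and 18.4%, and Ncapg and Ncapg2 lay below both. Smc4 was 1 of 3 members whose lowest level was in the Myod1 library, at 0.696 FPKM against 1.18 with Setdb1 knockdown, 5.99 with Pparg and 12.3 and 6.42 in the expression and knockdown vector controls. Of condensin I, Ncapd2 was left at 40.97%, Ncaph at 35.8% and Ncapg at 17.2% with Myod1, and at 27.1%, 12.7% and 6.73% with Setdb1 knockdown. Of condensin II, Ncapd3 was left at 34.9% and Ncapg2 at 22.01% with Myod1, and at 21.2% and 5.22% with Setdb1 knockdown. Ncaph2, the kleisin of condensin II, stood apart: it had 82.1 and 64.2 FPKM in the expression and knockdown vector controls, 67.6 with Pparg, 72.7 with Myod1 and 41.01 with Setdb1 knockdown. The Myod1 library lay between the controls for this gene, and the Setdb1 library kept 63.9% (61.01 to 66.8).

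All 6 mitotic kinesins were at least 2-fold lower with Myod1 expression (median -1.59), and 5 of 6 with Setdb1 knockdown (median -2.07). Kif11, which pushes the spindle poles apart, had 16.2 and 13.1 FPKM in the expression and knockdown vector controls, 10.2 with Pparg, 2.18 with Myod1 and 0.785 with Setdb1 knockdown, which left 13.4% (11.3 to 15.8) and 5.98% (4.63 to 7.63). The chromosome-arm motor Kif4 kept 24.4% and 8.801%, the midzone motor Kif23 kept 28.6% and 18.5%, and Kif2c, which takes microtubules apart at the centromere, kept 33.7% and 23.9%. Kif20a, needed for cytokinesis, had 25.5 FPKM in the expression vector control, 29.2 in the knockdown vector control, 28.3 with Pparg, 12.01 with Myod1 and 5.28 with Setdb1 knockdown, so Pparg expression lay between the controls. The related gene Kif20b missed the count with Setdb1 knockdown at 0.179 FPKM against 1.17, with 15.3% left (9.37 to 23.9) on 23 reads.

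Among the 11 genes of the spindle and of cytokinesis, 8 were at least 2-fold lower with Myod1 expression and 10 with Setdb1 knockdown, with medians of -1.65 and -2.36. The actin-binding protein of the cleavage furrow, Anln, had 24.3 and 23.9 FPKM in the expression and knockdown vector controls, 16.7 with Pparg, 6.196 with Myod1 and 1.96 with Setdb1 knockdown. Its controls agreed within counting error (98.02%, 93.6 to 103), and 25.4% and 8.19% were left. Ect2 and Racgap1, which switch on the GTPase RhoA at the furrow, were left at 26.4% and 39.96% with Myod1 and at 9.43% and 18.9% with Setdb1 knockdown. Tpx2, the activator of Aurka, was left at 30.2% and 21.6% in these comparisons, and the midzone bundler Prc1 at 26.9% and 19.6%. The spindle proteins Ckap2l (28.8% and 13.1%) and Nusap1 (36.5% and 15.2%) lay in the same range, and Hmmr (14.2% and 7.6001%) lay below it.

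Pimreg, a mitotic protein of this group, had the lowest log2 ratio of all members with Setdb1 knockdown, -3.61, although by percent of control Ncapg2 (5.22%) and Bub1 (5.27%) were below its 5.95%. It was among the less affected ones with Myod1 expression, at -0.81. It had 40.3 and 40.6 FPKM in the expression and knockdown vector controls, 39.7 with Pparg, 22.5 with Myod1 and 2.41 with Setdb1 knockdown. Gtse1, a microtubule-tip protein of G2 and mitosis that also restrains p53, differed between the 2 controls more than any member but the 6 named further on. Its level was 41.4 FPKM in the expression vector control, 70.6 in the knockdown vector control, 64.3 with Pparg, 40.8 with Myod1 and 42.4 with Setdb1 knockdown. The Setdb1 library was close to the expression vector control (log2 ratio 0.03) and lay at 60.1% of its own control, so the difference depended on the control. Ckap2 had 14.7 FPKM with Pparg expression, its highest level, beside 11.2 and 14.5 in the expression and knockdown vector controls.

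The last 4 genes bring mitosis to its end. Cdc20 (ENSMUSG00000006398, chromosome 4, 118432901 to 118437352) had 87.8 FPKM in the expression vector control, 103 in the knockdown vector control, 102 with Pparg, 49.5 with Myod1 and 21.3 with Setdb1 knockdown. Its partner Ube2c, the ubiquitin-conjugating enzyme of the anaphase-promoting complex, was left at 52.3% with Myod1 and 21.4% with Setdb1 knockdown, close to the 56.4% and 20.6% of Cdc20. Espl1, the protease separase, had 18.4 and 14.04 FPKM in the expression and knockdown vector controls, 13.2 with Pparg, 7.31 with Myod1 and 3.403 with Setdb1 knockdown.

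Pttg1 (ENSMUSG00000020415, chromosome 11, 43420250 to 43426251), the securin that holds separase inactive, was the single member with a value above its control in all 3 comparisons. It had 9.49 FPKM in the expression vector control, 8.22 in the knockdown vector control, 12.03 with Pparg, 11.3 with Myod1 and 13.6 with Setdb1 knockdown, so all 3 treated libraries were above both controls. The level was 166% of the control with Setdb1 knockdown (143 to 193), 127% with Pparg (109.5 to 147) and 119% with Myod1 (102 to 139), each below 2-fold. With each library divided by its column sum the Myod1 value turned lower than its control, while the Pparg and Setdb1 values stayed higher. Reads per gene do not tell which transcript of Pttg1 was present. The RefSeq start of this gene lies 270 bases inside the deposited gene model, and the window before it held neither CCAAT nor a CHR.

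**Figure D3:**
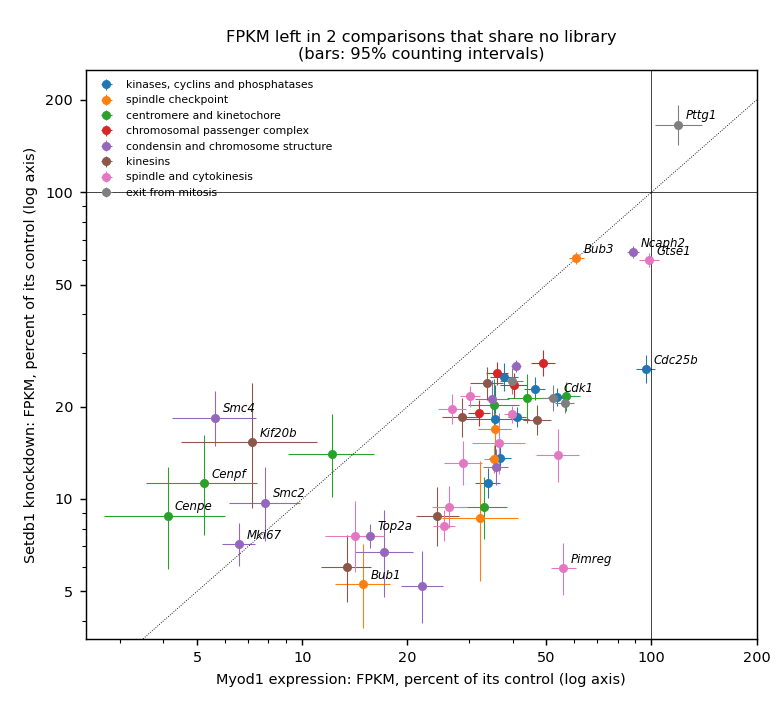
FPKM left with Myod1 expression (horizontal) and with Setdb1 knockdown (vertical), each in percent of its own control on log axes, for the 55 genes coloured by function, with 95% counting intervals as bars and a dotted line of equality. Most genes lie below the line, Smc4, Kif20b, Cenpf and Cenpe lie above it at the left, and Pttg1 lies above 100 on both axes (with column-sum scaling, below 100 with Myod1).

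Lower percentages were left with Setdb1 knockdown than with Myod1 expression in 46 of the 55 genes, beside 51.1% of all compared genes. The other 9 were Bub3, Cenpe, Cenpf, Ndc80, Smc2, Smc4, Mki67, Kif20b and Pttg1. This split divides each treatment by its own control. By FPKM alone, which is the order against any 1 control, the Setdb1 library was below the Myod1 library in 51 genes, and the exceptions were Bub3, Smc4, Gtse1 and Pttg1. Fewer than 10% were left for 15 genes with Setdb1 knockdown (Bub1, Ttk, Cenpe, Nuf2, Smc2, Ncapg, Ncapg2, Top2a, Mki67, Kif11, Kif4, Anln, Ect2, Hmmr and Pimreg), beside 1.71% of all genes. With Myod1 expression they were 6 (Cenpe, Cenpf, Smc2, Smc4, Mki67 and Kif20b), beside 1.37% of all genes. Against the knockdown vector control the 6 became 1, Cenpe at 9.08%, and the other 5 were left at 10.8% to 17.98%. With Setdb1 knockdown the 15 became 17 against the expression vector control, without Nuf2 and Ect2 and with Cenpf, Ndc80, Smc4 and Kif20b. Whether the 2 treatments differ in any 1 gene was not tested.

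With Pparg expression, 41 of the 55 genes were below both controls and 14 were between or above them. How many of all compared genes were below both was not counted. Counting intervals lay wholly below the level of the expression vector control for 46 genes and wholly above it for 7: Ccnb2, Birc5, Kif20a, Gtse1, Ckap2, Cdc20 and Pttg1. Of these 7, Ccnb2, Ckap2 and Pttg1 were also above the knockdown vector control. These intervals leave out the spread between cultures, which 1 library per group cannot give. The share of all compared genes with intervals wholly below or above the control was not counted.

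The 6 genes left below 10% with Myod1 expression were also the 6 that differed most between the 2 controls. Both percentages have the expression vector control as denominator, so a high value there lowers both. Cenpe, Cenpf, Smc2, Smc4, Mki67 and Kif20b had between 37.6% and 51.96% of the expression vector control's FPKM in the knockdown vector control, whereas no other member was below 63.6%. Their gene models were 5210 to 15433 bases long (median 7788.5, against 4354 for the other 49), and their transcripts had a GC content of 39.4% to 46.6% (median 41.6%, against 47.4%). Against the knockdown vector control their log2 ratios with Myod1 expression were between -2.13 and -0.84, compared with -3.43 to -1.66 against their own control.

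Across the 55 members, which are not independent replicates and share their libraries, Spearman's rho between GC content and the log2 ratio was 0.56 with Myod1 expression, 0.43 with Pparg expression, 0.11 with Setdb1 knockdown and 0.17 between the controls. Over the 12679 compared genes with a GC value it was 0.22, 0.19, 0.39 and -0.27 in the same order. Between gene length and the log2 ratio of the members rho was -0.51 with Myod1, -0.57 with Pparg, 0.02 with Setdb1 knockdown and -0.41 between the controls. Over the 12679 compared genes it was -0.26, -0.17, -0.25 and -0.09 in the same order. In the third of the members with the lowest GC content the median was -1.71 with Myod1 and -2.06 with Setdb1, and in the third with the highest it was -1.09 and -1.95. After trends with GC content and gene length over all genes were removed, 43 members were at least 2-fold lower with Myod1, 40 of them among the 43 counted before, and Mad2l1, Nuf2 and Ttk gave way to Cdc20, Pimreg and Ube2c. With Setdb1 knockdown 49 were, 48 of them as before, and with Pparg the same 2. The part of GC content and length in the differences was not tested further.

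**Figure D4:**
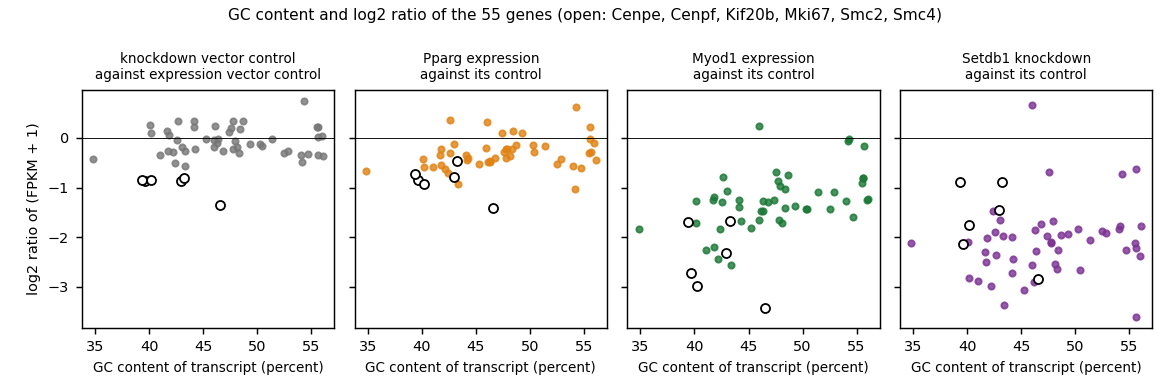
GC content of the longest transcript (horizontal, percent) and log2 ratio of (FPKM + 1) (vertical) of the 55 genes in 4 comparisons (panels), with Cenpe, Cenpf, Kif20b, Mki67, Smc2 and Smc4 as open points. The open points are the 6 lowest between the controls, and with Setdb1 knockdown they lie between -2.84 and -0.88.

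Ratios between 2 members inside 1 library do not depend on how libraries were scaled to each other. Trends with GC content or length that differ between libraries do not cancel in them, and their part was not tested. The pairs below were chosen after their values were seen. The ratio of Pttg1 to Espl1, securin to separase, was 0.516 in the expression vector control (0.458 to 0.581), 0.586 in the knockdown vector control (0.515 to 0.665), 0.91 with Pparg (0.821 to 1.007), 1.55 with Myod1 (1.37 to 1.75) and 4.01 with Setdb1 knockdown (3.55 to 4.53). Bub3 to Bub1b was 0.948 and 1.23 in the expression and knockdown vector controls, 0.945 with Pparg, 1.63 with Myod1 and 5.54 with Setdb1 knockdown. The kleisins of condensin II and condensin I, Ncaph2 to Ncaph, stood at 2.61, 2.55 and 2.52 in the controls and with Pparg, at 6.47 with Myod1 and at 12.8 with Setdb1 knockdown. All 3 ratios were highest with Setdb1 knockdown and next highest with Myod1 expression. Ccnb2 to Ccnb1 gave another order, with 1.64 in the expression vector control, 1.16 in the knockdown vector control, 2.41 with Pparg, 1.68 with Myod1 and 2.14 with Setdb1 knockdown.

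**Figure D5:**
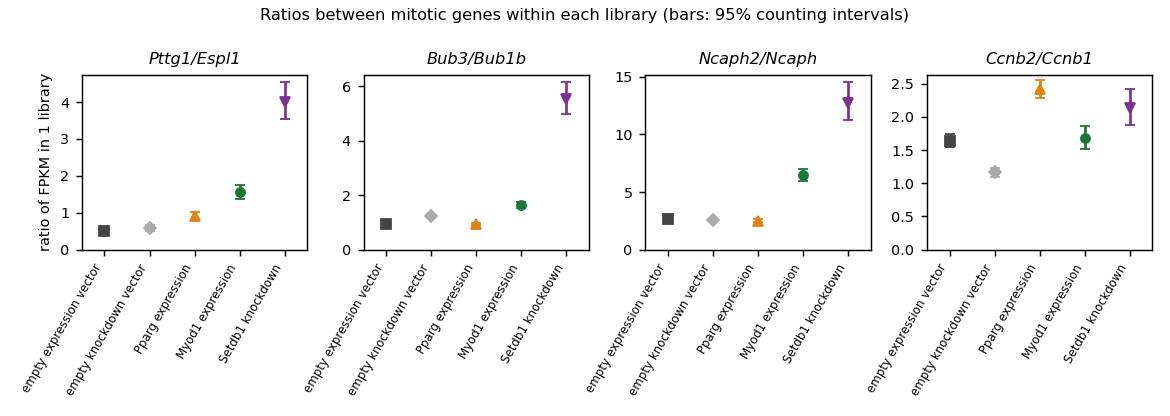
Ratio of FPKM between 2 genes inside each of the 5 libraries (points, linear axes from 0) with 95% counting intervals as bars, for 4 pairs. Pttg1/Espl1 is 0.516 in the expression vector control and 4.01 with Setdb1 knockdown, and Ccnb2/Ccnb1 is highest with Pparg expression.

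Other genes of the pathway were read from 5 lists with 81 genes, all found in the table and compared. Setdb1 knockdown left 39 of the 81 at least 2-fold lower, beside 10.3% of all genes, and 3 at least 2-fold higher, beside 9.34%. Myod1 expression left 24 lower, beside 7.55% of all genes, and Pparg expression 0, beside 2.3%, with 0 higher in either. The medians were -0.97 (Setdb1), -0.75 (Myod1) and -0.14 (Pparg), and 0.04 between the controls. Of the 30 further kinetochore genes, 8 were lower with Myod1 (7.55% of all genes) and 18 with Setdb1 knockdown (10.3%). Against the knockdown vector control the count of 8 became 14, beside 7.51% of all genes. Kntc1, a subunit of the complex that brings dynein to kinetochores, had log2 ratios of -1.57 and -2.46, while Zwint had the highest with Setdb1 knockdown, at 46.1 FPKM against 29.2 (0.64). Cohesin and its regulators hold sister chromatids together. Of these 14 genes, 9 were lower with Myod1 (7.55% of all genes) and 10 with Setdb1 knockdown (10.3%). The cohesin subunit Smc3 had 12.4 FPKM in the expression vector control and 7.19 in the knockdown vector control, and 1.81 with Myod1 (log2 ratio -2.25). Sgo1, which shields centromeric cohesin, had 7.94 FPKM in the knockdown vector control and 0.652 with Setdb1 knockdown (-2.44).

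Of 17 genes of the anaphase-promoting complex and its regulators, 2 were lower with Myod1 (7.55% of all genes) and 3 with Setdb1 knockdown (10.3%). Fbxo5, its inhibitor Emi1, was the lowest in both (-1.57 and -2.47). The subunits Anapc13 (1.26) and Anapc16 (1.11) were at least 2-fold higher with Setdb1 knockdown, beside 9.34% of all genes. Against the expression vector control they were at 0.82 and 1.12. Among 14 regulators of mitotic transcription, 3 were lower with Myod1 (7.55% of all genes) and 5 with Setdb1 knockdown (10.3%). Foxm1, the forkhead factor that binds CHR promoters together with B-Myb and MuvB, had 48.7 and 50.5 FPKM in the expression and knockdown vector controls, 34.6 with Pparg, 20.2 with Myod1 and 10.5 with Setdb1 knockdown. Lin37, a MuvB subunit, was the highest of the list with Setdb1 knockdown, at 20.8 FPKM against 9.87 in its control. Against the expression vector control its log2 ratio was 0.86, below the 1.27 of Lin52 from the same list. Of 6 genes that hold back mitotic entry or act with the kinase Greatwall, the Cdk1 inhibitor Wee1 had the lowest log2 ratio with Myod1 (-1.42) and with Setdb1 knockdown (-1.81), and Ensa the highest with Myod1 (0.77). With Pparg expression the 81 genes ranged from -0.71 for Sgo1 to 0.54 for Ensa. Between the controls they ranged from -0.71 for Smc3 to 0.46 for Ska3. By percent of control, Mastl, the kinase Greatwall, was below Wee1, with 25.6% against 34.2% left with Myod1 and 8.49% against 24.9% with Setdb1 knockdown.

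Some values could hold reads of other genes. Of the 55 members, 10 are overlapped by another gene above 1 FPKM, always on the opposite strand, and whether counting used strand is not given in the sources used here. For Nusap1 the partner is Oip5 (172 bases), which was itself left low with Setdb1 knockdown, at 0.79 FPKM against 7.299. Kif4 shares 832 bases with Pdzd11, which had 13.1 FPKM with Setdb1 knockdown, where Kif4 had 0.882. Ube2c shares 1662 bases with Tnnc2, which had 1.35 FPKM with Myod1 expression and 0 in its control. Pseudogenes named for 9 members are in the table, 7 of these 10 pseudogenes are at 0 in all libraries, and the highest value of any was 2.26 FPKM, for that of Ube2c.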

How the data were processed

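Expression was read from FPKM values in a table the authors deposited, which per the file headers also holds gene positions and lengths. CASAVA, HISAT2 and featureCounts 1.5.0-p3 and build GRCm38 are named in the submitters' processing notes, with no role or order. Strand setting, shared reads and scaling are not given in the sources used here. FPKM times gene length was a whole multiple (within 0.01) of 1 step per library for 100% of values above 0, which gave back the reads. The divisors equalled median-of-ratios size factors times the geometric mean of the totals (ratio 1.00), so libraries were already scaled to each other. Of the 55 genes, 52 had the same position in GENCODE M21 (GRCm38), and GC content is that of the longest M21 transcript.

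Log2 ratios used a pseudocount of 1. Intervals are 95% Wilson for shares of reads and exact (Clopper-Pearson) for ratios. Recovery of reads was tested on simulated data. Python 3.11.15 and scipy 1.17.1 were used. By a fixed rule, values in all libraries are given for Cdk1, Ccnb1, Plk1, Mki67, Top2a, Cdc20 and the members with the lowest and highest mean log2 ratio of each functional group, and over all the other lists the lowest and highest log2 ratios. Further genes named with values were chosen after their values were seen. The members and lists were chosen with earlier results of these data known. The labels do not say that cultures were independent. A listed marker of another cell type is not reported here.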

Additional observations from a re-analysis of the deposited data

How the results depend on the processing

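No paired analysis was possible because each group had 1 library. Over 11 alternatives the count of members at least 2-fold lower stayed within 1.5 times in 10 with Myod1 and in 10 with Setdb1 knockdown. The exception was the 4-fold limit, with 8 and 30 members, beside 0.382% and 1.5% of all genes. With Pparg expression the count of 2 became 4 with a pseudocount of 0.1 (4.66% of all genes). It became 5 with values under 3 reads set to 3 reads and no pseudocount (4.11%), and 1 with column-sum scaling (1.95%). It was 0 with the 4-fold limit (0.179%), with the other control (2.41%) and against both controls (0.849%). The cause was not tested. The median over the members stayed below 0 with each alternative, from -1.75 to -1.25 with Myod1, -0.45 to -0.17 with Pparg and -2.46 to -1.95 with Setdb1. Column-sum scaling moved the median of all genes by -0.28 in the Myod1 comparison and scaling to the 75th percentile by -0.12. The members then had medians of -1.75 and -1.55. At least 2-fold lower were 51 and 46 members, beside 14.8% and 10.4% of all genes. With a pseudocount of 0.1, 13.2% of all genes were at least 2-fold lower with Myod1 and 16.3% with Setdb1. Against the other control, Cdc25b and Ncaph2 were higher with Myod1 and Gtse1 with Setdb1. Chosen after seeing the data, the other control was also used for the further lists and the genes under 10%: 8 further kinetochore genes lower with Myod1 became 14, and 6 members under 10% became 1. Kif20b and Ttk rested on 23 reads in their lowest library.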

Other observations

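Ratios between subunits of 1 complex are given here as values. The FPKM ratio of Ncapd2 to Smc2, both in condensin I, was 9.38 in the expression vector control (8.804 to 10.003), 14.3 in the knockdown vector control (13.1 to 15.7), 12.2 with Pparg expression (11.2 to 13.2), 48.97 with Myod1 expression (39.2 to 61.98) and 40.1 with Setdb1 knockdown (30.96 to 52.8). Between Smc2 and Smc4, which pair 1 to 1, the ratio was 0.947 and 0.934 in the expression and knockdown vector controls and 1.018 with Pparg. It was 1.32 with Myod1 (0.926 to 1.89) and 0.492 with Setdb1 knockdown (0.353 to 0.6798). Within the Ndc80 complex, Spc24 to Ndc80 went from 3.79 in the expression vector control to 13.8 with Myod1 (10.4 to 18.6), and from 4.904 in the knockdown vector control (4.28 to 5.63) to 7.47 with Setdb1 knockdown (5.37 to 10.5), where the intervals overlap.

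Bub3 to Bub1 was the highest of the 13 ratios computed in the Setdb1 library, at 51.8 (38.5 to 71.4), beside 4.47 in its control. Cdc25b to Cdc25c was 10.04 with Myod1 expression (8.22 to 12.4), 3.71 in the expression vector control, 2.29 with Pparg, 2.22 in the knockdown vector control and 3.23 with Setdb1 knockdown. These pairs were chosen after their values were seen, the intervals cover counting error only, and no cause was tested.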
